A study of Mus musculus with 8 samples.

Results

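Heme synthesis enzymes and a mitochondrial iron importer were followed through 6 probe sets of an Affymetrix mouse array, out of 45101 on it. The 6 were listed by gene, with earlier results of these data known. They stand for Alas2 (1451675_a_at), Alad (1424877_a_at), Urod (1417206_at), Cpox (1422493_at), Fech (1418698_a_at) and Slc25a37 (1417750_a_at). The gene names are those of Affymetrix's annotation for the array. The deposited files give IDs alone.

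The samples were whole blood of mice, drawn from the vena cava, with 4 arrays in each group. The hypoxia group lived in a closed chamber in which oxygen was brought down from 21% to 8% across 14 days, at normal pressure, and was bled after 15 days. The control group was kept at room condition. RNA was isolated from 500 µl of blood in hypoxia and from 100 µl in control, so blood volume and group cannot be told apart. Strain, sex and age are not given in the labels used here, and nothing in them ties a number to 1 animal of its own. P-values therefore reflect the spread among these samples, which may be technical in part.

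Heme is made partly in mitochondria and partly in the cytosol. Alas2 encodes the erythroid aminolevulinate synthase, which joins glycine to succinyl-CoA and sets the pace of the pathway in red cell precursors. An iron-responsive element in its messenger ties its translation to the iron supply. Alad and Urod act in the cytosol, Cpox in the space between the mitochondrial membranes, and Fech, at the inner membrane, puts iron into protoporphyrin. Slc25a37, or mitoferrin-1, carries that iron into the mitochondrion. In blood, reticulocytes, the young red cells that still hold RNA, can carry these messengers. Which cells carried them here was not tested. In whole blood, more reticulocytes, more RNA per reticulocyte and a change in other cells cannot be told apart.

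The stretches upstream of 3 of these genes are shown because Alas2 had a very bright signal in both groups, whereas Urod and Cpox were dimmer and passed the test. They come from RefSeq's promoter table (build GRCm38.p6), which held 4 of the 6 genes. Each runs 5′ to 3′ on the gene's strand and ends at the base before the annotated gene. Capitals mark GATAA, the core bound by GATA1, CACCC, the box bound by KLF1, and ACGTG or GCGTG, forms of the core of a hypoxia response element, on either strand.
Alas2, chrX:150547167-150547416, plus strand: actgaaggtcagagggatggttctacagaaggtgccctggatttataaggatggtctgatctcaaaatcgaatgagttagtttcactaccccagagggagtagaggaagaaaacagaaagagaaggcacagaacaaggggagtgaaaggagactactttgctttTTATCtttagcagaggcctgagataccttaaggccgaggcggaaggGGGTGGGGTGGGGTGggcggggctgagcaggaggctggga
Urod, chr4:116994437-116994663, minus strand: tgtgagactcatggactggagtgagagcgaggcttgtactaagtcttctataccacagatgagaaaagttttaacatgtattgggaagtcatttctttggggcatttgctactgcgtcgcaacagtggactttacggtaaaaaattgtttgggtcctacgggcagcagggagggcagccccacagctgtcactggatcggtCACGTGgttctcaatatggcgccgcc
Cpox, chr16:58669958-58670207, plus strand: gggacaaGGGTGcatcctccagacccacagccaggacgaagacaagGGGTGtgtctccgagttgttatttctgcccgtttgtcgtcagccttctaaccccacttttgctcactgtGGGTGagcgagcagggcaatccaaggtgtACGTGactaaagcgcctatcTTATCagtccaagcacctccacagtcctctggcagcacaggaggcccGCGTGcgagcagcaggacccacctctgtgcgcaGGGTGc

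The Alas2 stretch held 1 GATAA and 3 CACCC, side by side and all on the other strand, and neither ACGTG nor GCGTG. Urod held ACGTG on both strands of 1 palindrome, and neither GATAA nor CACCC. Cpox held 1 GATAA, 4 CACCC, 1 ACGTG and 1 GCGTG. The table has 2 start sites for Alad (chr4:62505984-62520063, minus strand). The 250 bases before the outer one held ACGTG on both strands of 1 palindrome and none of the other motifs. Those before the inner one, which overlap the gene, held another such palindrome, 1 CACCC and 1 GCGTG. The palindrome, CACGTG, is also the form of an E-box. Of all 32851 promoters in the table, taken at 250 bases, 22.6% held GATAA, 52.0% CACCC, 16.6% ACGTG and 28.2% GCGTG. A match of 5 letters describes the sequence without showing a bound site.

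All 6 probe sets had a higher mean in hypoxic blood than in control blood, by 2.88 to 7.73-fold as deposited. The mean change was greatest for Cpox as deposited and smallest for Fech, but the order of Cpox, Urod and Alad was not settled: without control 2 the log2 changes were 2.79 for Urod, 2.35 for Alad and 2.25 for Cpox. Nor was the lowest place settled: without control 1 the log2 change was 1.52 for Alad and 1.56 for Fech. As deposited, the log2 ratio of Alas2 over Fech changed by only 0.10 (SE 0.09, exact permutation p = 0.343). The rises of 5 passed the test, those of Alas2, Urod, Cpox, Fech and Slc25a37, and that of Alad did not. The same 5 had all hypoxia arrays above all control arrays. By limma at an adjusted p under 0.05, 3.65% of the 45037 probe sets tested were called higher, and 10.5% had all hypoxia arrays above all controls. The median change of the 6 was 2.00 on the log2 scale, against 0.19 over all probe sets tested. This share of calls rested strongly on brightness: of the brightest 1% of probe sets, to which Alas2, Fech and Slc25a37 belong, 55.6% were called higher, 80.7% had separate groups, and the median change was 1.54.

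**Figure D1:**
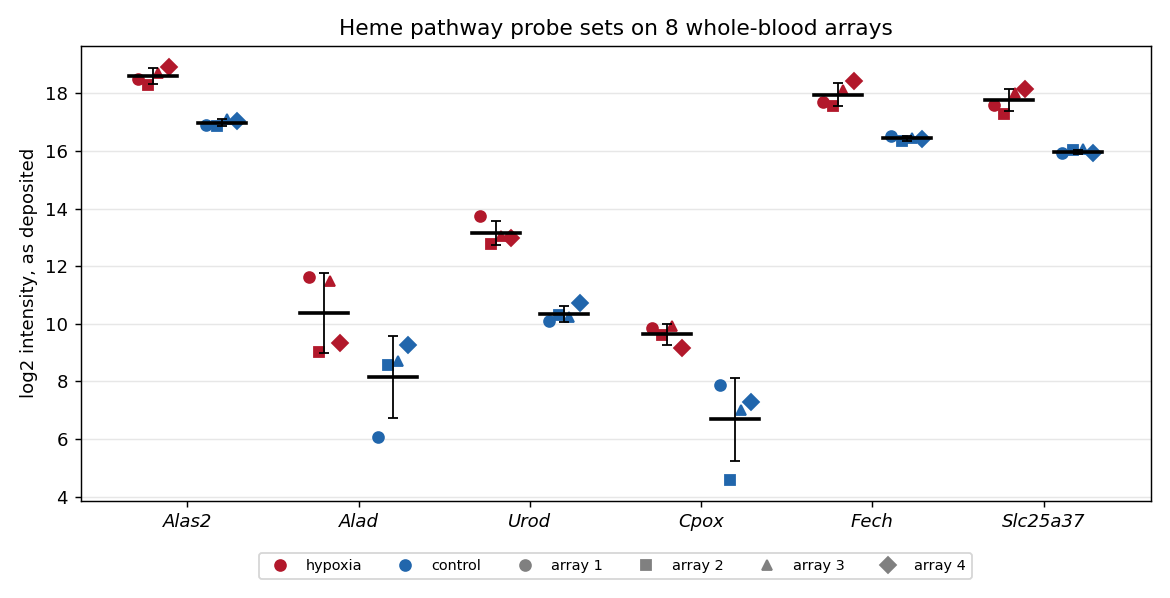
Log2 intensity (as deposited) of each probe set on each of the 8 arrays, hypoxia in red and control in blue, with the symbol giving the array's number. Lines and bars are the group mean and SD (n = 4). The groups overlap for Alad alone, where the lowest hypoxia array stands at 9.01 and the highest control array at 9.28.

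The pathway opens with Alas2, on chromosome X (150547417 to 150570622). Its intensity was 369963, 317683, 426946 and 500232 in hypoxia 1 to 4, against 121398, 119323, 142585 and 134714 in control 1 to 4. Every hypoxia array lay above every control array, and the groups were 1.16 log2 units apart at their closest. The log2 intensity was 18.60 ± 0.28 in hypoxia and 16.98 ± 0.12 in control (SD, n = 4 each), a 3.08-fold rise (95% interval 1.80 to 5.27, limma adjusted p = 0.0334, exact permutation p = 0.0286, two-sided and the smallest that 4 against 4 arrays allow). The interval comes from the same limma fit. This rise was larger than that of 85.3% of all probe sets, and it lay close to the median of the brightest 1%.

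Alad makes porphobilinogen, the first ring of the pathway, and varied most within the hypoxia group. Its intensity was 3185, 516, 2863 and 652 in hypoxia 1 to 4, against 67.0, 379, 421 and 620 in control 1 to 4. Hypoxia 1 and 3 stood far above every control array, while hypoxia 2 lay below control 4 and hypoxia 4 just above it. The mean log2 intensity was 10.37 ± 1.38 in hypoxia and 8.16 ± 1.43 in control (SD, n = 4 each), a 4.64-fold difference with a 95% interval of 1.13 to 19.1 that did not pass (limma adjusted p = 0.166, exact permutation p = 0.0571).

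Urod takes uroporphyrinogen to coproporphyrinogen and gave the best separated groups of the 6. It lies on chromosome 4 (116989965 to 116994436). Its intensity was 13768, 7061, 8522 and 8045 in hypoxia 1 to 4, against 1097, 1280, 1197 and 1702 in control 1 to 4. The lowest hypoxia array exceeded the highest control array by 2.05 log2 units. The log2 intensity was 13.14 ± 0.42 in hypoxia and 10.34 ± 0.27 in control (SD, n = 4 each), a 6.95-fold rise (95% interval 3.82 to 12.6, limma adjusted p = 0.0131, exact permutation p = 0.0286). It exceeded the change of 97.1% of all probe sets. Urod belongs to the brightest 10% of probe sets, of which 18.9% were called higher and whose median change was -0.17.

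Cpox converts coproporphyrinogen to protoporphyrinogen. It lies on chromosome 16 (58670208 to 58680391), and its control signal was dim. Its intensity was 919, 781, 972 and 566 in hypoxia 1 to 4, against 234, 23.8, 128 and 155 in control 1 to 4. All hypoxia arrays were above all controls, and control 2 was far below the other controls, on an array whose dimmest 10% of probe sets ended at 13.7. Only control 1 was above its array's median intensity, which ranged from 163 to 202 in control. The log2 intensity was 9.63 ± 0.35 in hypoxia and 6.68 ± 1.45 in control (SD, n = 4 each), a 7.73-fold rise (95% interval 2.55 to 23.5, limma adjusted p = 0.0464, exact permutation p = 0.0286). Without control 2 the log2 change was 2.25 in place of 2.95, with an adjusted p of 0.0623.

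Fech, which completes heme, lies on chromosome 18 (64456542 to 64489098). Its intensity was 215471, 193768, 285158 and 357968 in hypoxia 1 to 4, against 94427, 82632, 89897 and 88176 in control 1 to 4. The controls lay close together, and every hypoxia array was well above them. Its log2 change of 1.53 was about the median of the brightest 1% of probe sets, 1.54. Of those, 80.7% had separate groups. The log2 intensity was 17.96 ± 0.40 in hypoxia and 16.44 ± 0.080 in control (SD, n = 4 each), a 2.88-fold rise (95% interval 1.64 to 5.07, limma adjusted p = 0.0448, exact permutation p = 0.0286).

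Slc25a37, the mitochondrial iron importer, lies on chromosome 14 (69241848 to 69285544). Its intensity was 197723, 161552, 264030 and 289724 in hypoxia 1 to 4, against 61806, 66575, 68130 and 62145 in control 1 to 4. As for Fech, the controls were tight and the hypoxia arrays spread out above them. Its log2 change of 1.78 stands beside the same median of 1.54 in the brightest 1%. The log2 intensity was 17.76 ± 0.39 in hypoxia and 15.98 ± 0.071 in control (SD, n = 4 each), a 3.44-fold rise (95% interval 1.96 to 6.03, limma adjusted p = 0.0292, exact permutation p = 0.0286).

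Alas2, Fech and Slc25a37 had the same order within the hypoxia group, with hypoxia 4 highest, then 3, 1 and 2. The hybridization controls, foreign RNA added to each sample, had that order too, at 18.05, 17.84, 18.28 and 18.49 on the log2 scale in hypoxia 1 to 4, against 17.19, 17.05, 17.52 and 17.12 in control 1 to 4. They were brighter in hypoxia by 0.94 log2 units. Their part in these rises was not tested. Centring each array on them left Alas2 higher by 0.69, Fech by 0.59 and Slc25a37 by 0.84. Each had separate groups (exact permutation p = 0.0286), with limma adjusted p-values of 0.244, 0.327 and 0.163. The brightest 1% of probe sets had a median change of 0.60 under that centring. The share of all probe sets with separate groups was not counted there. Urod, Alad and Cpox had other orders, with hypoxia 1 highest for Urod and Alad and hypoxia 3 for Cpox.

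Ranking each probe set among the 45037 on its own array removes the scale altogether. Alas2 ranked 3 to 6 on the hypoxia arrays and 10 to 18 on the control arrays, counted from the brightest. Slc25a37 ranked 44 to 78 in hypoxia and 86 to 137 in control. Fech ranked 32 to 55 in hypoxia and 30 to 67 in control, so its place on the array did not separate the groups. Urod ranked 751 to 1085 in hypoxia and 3920 to 5953 in control, and Cpox 5427 to 9587 in hypoxia and 20480 to 38297 in control. Both had separate groups. Alad overlapped, with 1979 to 11124 in hypoxia and 8967 to 34646 in control. The share of all probe sets whose ranks separate the groups was not counted. Shifts in rank are not compared between probe sets, since a bright one has few places left to gain. Alas2, Fech and Slc25a37 together held 0.939% to 1.19% of the summed intensity in hypoxia and 0.564% to 0.646% in control. Alad, Urod and Cpox together held 0.00958% to 0.0220% in hypoxia and 0.00316% to 0.00490% in control.

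**Figure D2:**
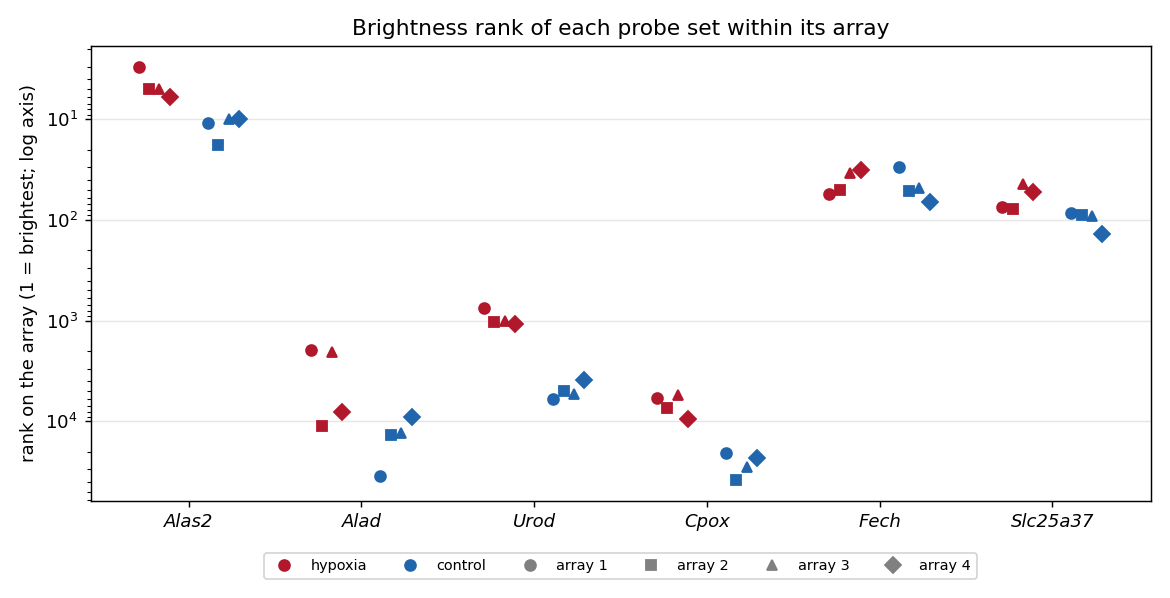
Rank of each probe set within its array (log axis, 1 is the brightest of 45037), hypoxia in red and control in blue, 1 point per array. The ranks of Alas2, Urod, Cpox and Slc25a37 do not overlap between the groups. Those of Alad and Fech do, with Fech at 32 to 55 in hypoxia and 30 to 67 in control. The share of all probe sets with separate ranks was not counted.

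How much of each change remained depended on the scaling between arrays. The rise of Urod passed the limma test under all 5 scalings tried, at 2.80 log2 units on the deposited scale, 2.77 with quantile normalization, 2.46 with each array centred on its median, 1.86 with arrays centred on the hybridization controls and 2.77 with arrays centred on Actb. The change of Cpox was 2.01 to 2.95 across these scalings, and its adjusted p was 0.0464 as deposited and 0.0541 to 0.0894 otherwise. Its groups overlapped with arrays centred on the hybridization controls (exact permutation p = 0.0571) and were separate under the other scalings. Those of Alad were separate only with arrays centred on Actb (exact permutation p = 0.0286, limma adjusted p = 0.165). The share of all probe sets with separate groups was counted only as deposited. Quantile normalization forces all arrays to 1 distribution and left little of the changes of the 3 bright probe sets, with 0.35 for Alas2 (adjusted p = 0.538), 0.079 for Fech (adjusted p = 0.909) and 0.36 for Slc25a37 (adjusted p = 0.548). The groups of Alas2 and Slc25a37 did not overlap under it (exact permutation p = 0.0286 each), and those of Fech did (exact permutation p = 0.514). Quantile values follow the ranks within an array, so this separation restates that of the ranks and is no further check. The changes of Alas2 and Slc25a37 there exceeded those of 60.6% and 60.8% of all probe sets. How many of all probe sets had separate groups there was not counted. Under quantile normalization Urod was the 1 member called, where 2.71% of all probe sets were called higher. The brightest 1% had a median change of 0.18 there. These scalings also moved the array as a whole, whose median change was 0.19 as deposited, 0.00 with quantile normalization, -0.15 with median centring, -0.74 with the hybridization controls as the base and 0.17 with Actb as the base. Relative to that median, as deposited, the changes were 2.76 for Cpox, 2.60 for Urod, 2.02 for Alad, 1.59 for Slc25a37, 1.43 for Alas2 and 1.33 for Fech.

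The authors' deposited table, made by SAM (significance analysis of microarrays) from values other than the deposited intensities, listed all 6 probe sets as higher in hypoxia. Log2 differences in the authors' deposited table were 2.46 for Urod, 2.03 for Alad and 1.70 for Cpox, each with a q-value of 0%. There Slc25a37 differed by 0.50 with a q-value of 3.50%, Alas2 by 0.30 with a q-value of 6.42% and Fech by 0.26 with a q-value of 15.2%. Thus 4 of the 6 had a q-value under 5%, where 20.6% of the 19916 listed probe sets were higher at that level. The median difference in the authors' deposited table was 1.10 for the 6 and -0.18 for all listed.

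**Figure D3:**
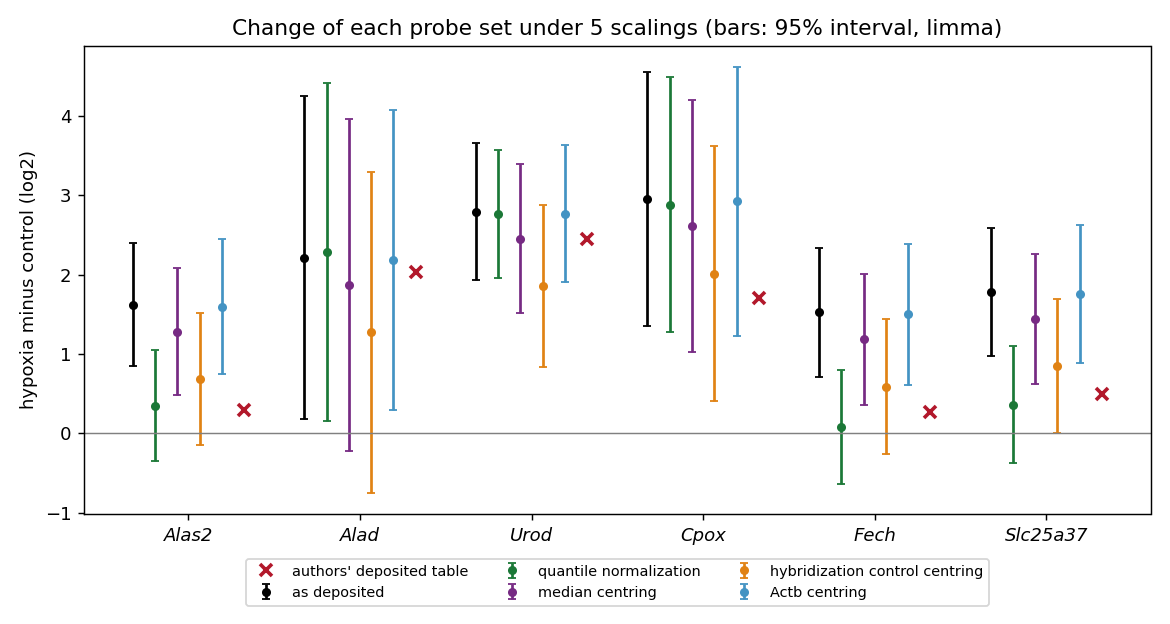
Hypoxia minus control (log2) for each probe set under 5 scalings, with 95% limma intervals, and crosses for the authors' deposited table. Urod stays between 1.86 and 2.80 on the 5 scalings, while Alas2 ranges from 0.35 to 1.62 and Fech from 0.079 to 1.53.

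Ratios within an array, which a factor common to the array leaves untouched, were used to compare the changes of pairs. The shift between groups varied with brightness, at a median of 1.54 in the brightest 1% of probe sets and -0.17 in the brightest 10%. A ratio across brightness levels can hold such a shift, and its part was not tested. Of the 15 ratios between pairs, 4 had groups that did not overlap, each with an exact permutation p of 0.0286. None passed after adjustment over the 15, where these 4 had an adjusted p of 0.107. The exact p cannot go below 0.0286, so a ratio can pass only if most of the 15 reach that value. The adjusted test therefore says little about any single ratio. Urod over Fech had a log2 ratio of -3.97, -4.78, -5.06 and -5.48 in hypoxia 1 to 4, against -6.43, -6.01, -6.23 and -5.69 in control 1 to 4. It was thus higher by 1.27 (SE 0.36), though hypoxia 4 came close to control 4. Urod over Slc25a37 was higher by 1.01 (SE 0.33), and Alas2 over Urod was lower, at -1.17 (SE 0.29). Quantile normalization, which is not a common factor, made these ratio changes larger, at 2.69 for Urod over Fech, 2.41 for Urod over Slc25a37 and -2.42 for Alas2 over Urod, each with an adjusted p of 0.0612 over the 15 (exact permutation tests). The fourth ratio with separate groups was Fech over Slc25a37, which was lower by a small amount, at -0.26 (SE 0.08), with 0.20 ± 0.10 in hypoxia and 0.46 ± 0.13 in control (SD, n = 4 each). Alas2 over Fech differed by 0.10 (SE 0.09, exact permutation p = 0.343) and Alas2 over Slc25a37 by -0.16 (SE 0.09, exact permutation p = 0.143). The order of Cpox and Urod was not resolved, at -0.15 (SE 0.77, exact permutation p = 0.857) for Urod over Cpox. Levels are not compared between genes, since probe sets differ in how brightly they report the same amount of RNA.

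**Figure D4:**
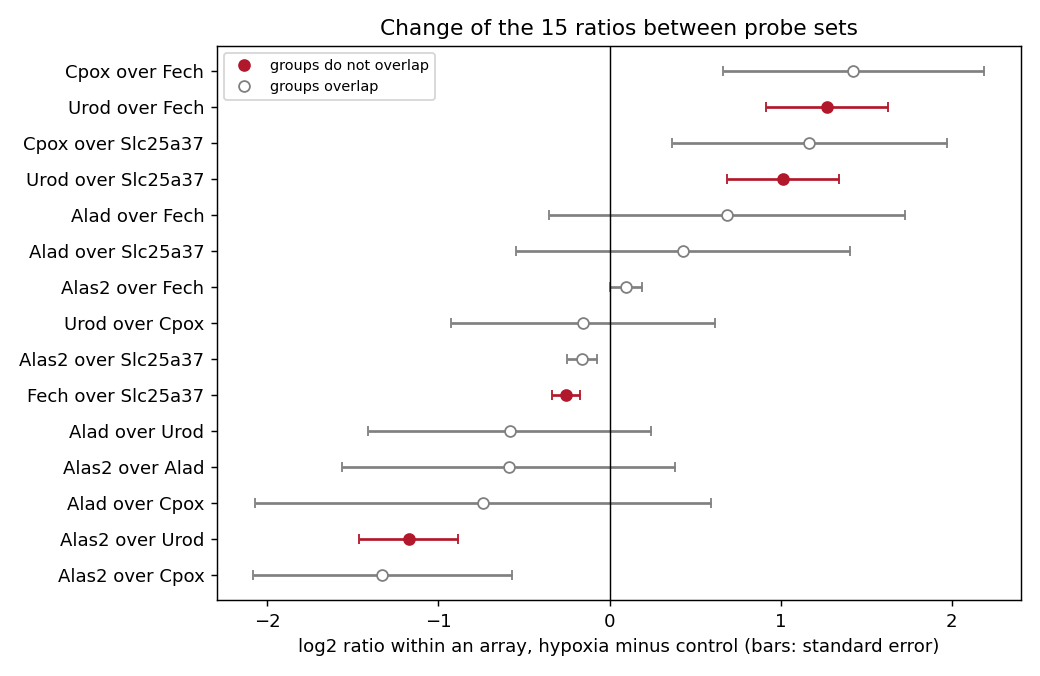
Hypoxia minus control of the log2 ratio of 2 probe sets within each array, for all 15 pairs, with standard errors. Filled red points are the 4 ratios whose groups do not overlap, from -1.17 for Alas2 over Urod to 1.27 for Urod over Fech.

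The call of Urod held with any 1 array left out, with limma adjusted p-values of 0.0187 to 0.0475. The calls of Alas2, Fech and Slc25a37 held without hypoxia 2 and were lost without any other array, with adjusted p-values of 0.0599 to 0.0957, 0.0754 to 0.115 and 0.0558 to 0.0841. That of Cpox was lost without any 1 array, at 0.0623 to 0.0987. In these smaller sets the changes kept their sign, and those of the 3 bright probe sets stayed between 1.36 and 1.94 log2 units. Other genes of the pathway and blood cell markers, apart from Tfrc, could not be assigned to probe sets from the files. Tfrc, listed as an erythroid marker, is named by control probe sets of the array. None of these genes was analysed here, so the cell make-up of the samples was not checked.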

How the data were processed

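Whole blood was profiled on 8 one-colour Affymetrix arrays, 4 per group. The deposited value table gives a linear intensity per probe set. Per the submitters' processing notes, Partek, RMA and GCRMA were used, with no roles stated, and how the intensities were made is not stated in the sources used here. Each array had a trimmed mean of 500 (2% cut at each end). The median intensity was 236 ± 7.24 in hypoxia and 187 ± 18.4 in control (SD, n = 4 each). Per the file headers, the authors' table of 19916 probe sets and 33 controls holds a SAM score, a q-value (percent), a fold ratio and the difference between group means. The authors' difference is on the log2 scale, since 2 to its power gives about the deposited fold.

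Values were floored at 1 (14 intensities) before log2. The 64 array controls were set aside, and limma 3.58.1 (R 4.3.3, lmFit and eBayes, no covariate) was fitted to the other 45037 probe sets, with Benjamini-Hochberg adjustment over all of them. The fit was also run on simulated data, with normal noise at the control arrays' SD in both groups. Spread differed between the groups here, as for Fech, with log2 SDs of 0.40 in hypoxia and 0.080 in control. That run therefore does not check the fit under unequal spread. Single values were also tested by exact permutation over the 70 labelings, two-sided. The 15 ratios had their own adjustment. Beside the 6 probe sets, the rule for names asked for the other probe sets of these genes, the other enzymes and the probe sets of most similar pattern, which need gene names and were not analysed here. Alternatives were the scaling, an offset, a filter, the prior, array weights, a replicate block and leaving out each array. Same-numbered arrays of the groups did not deviate together (correlations of -0.02 to 0.01), so the numbers were not treated as pairs. The members and lists were chosen with earlier results of these data known. The number of arrays limits the precision.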

Additional observations from a re-analysis of the deposited data

Results flagged for a closer look

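Of 42 groups of 4 arrays examined (6 levels and 15 ratios in each group), 2 had 1 array standing apart by Dixon's 95% limit, and chance alone would give about 2.1. The log2 ratio of Alas2 over Cpox was 9.79 in hypoxia 4, against 8.65 to 8.78 in hypoxia 1 to 3. The log2 ratio of Alad over Urod was -4.03 in control 1, against -1.76 to -1.46 in the other controls. In that array Alad had an intensity of 67.0.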

How the results depend on the processing

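The fitted changes of all 6 probe sets were above 0 under every alternative run, though Alad passed under none and Fech was at 0.079 (adjusted p = 0.909) after quantile normalization. As deposited, 5 of the 6 passed, with 1643 rises and 1173 falls on the whole array. After quantile normalization 1 of the 6 passed, Urod. The changes were 0.35 for Alas2, 2.89 for Cpox and 0.36 for Slc25a37, with 1222 rises (2.71% of probe sets). After median centring 2 passed, Urod (limma adjusted p = 0.0231) and Slc25a37 (limma adjusted p = 0.0465). Alas2, Cpox and Fech lost their calls, with changes of 1.28, 2.61 and 1.19. The array had 1100 rises (2.44%) and 2433 falls. After centring on the hybridization controls 1 passed, Urod. Alas2 changed by 0.69, Cpox by 2.01, Fech by 0.59 and Slc25a37 by 0.84, and the array had 593 rises (1.32%) and 6129 falls. After centring on Actb 2 passed, Urod (limma adjusted p = 0.0133) and Slc25a37 (limma adjusted p = 0.0464). Alas2, Cpox and Fech lost their calls, with changes of 1.60, 2.92 and 1.50. The array had 1074 rises (2.38%) and 408 falls. Rises were thus 58.3% of all calls as deposited, 31.1% with median centring, 8.82% with the hybridization controls as the base and 72.5% with Actb as the base. An offset of 16 kept the 5 calls (2284 rises and 1908 falls). So did the filter on dim probe sets (3006 rises and 3382 falls) and the trended and robust prior (3123 rises and 3713 falls). All of these settings called more of the array than the fit as deposited. The filter kept only probe sets above the median brightness, so its counts come from fewer tested probe sets. Brightness there was the mean log2 value over all 8 arrays, with a cut near 7.32. Cpox, at a mean of 6.68 in control and 9.63 in hypoxia, passed that cut only through its hypoxia arrays. Its call under the filter is therefore no separate support. Array weights ended the call of Cpox, at 3.11. In the authors' deposited table the differences were 0.30 for Alas2, 1.70 for Cpox, 0.26 for Fech and 0.50 for Slc25a37. With 1 array left out, which lowers the number of samples, the members called were 1 to 4, the rises 384 to 1367 and the falls 76 to 1250. Alas2 then changed by 1.51 to 1.73, Cpox by 2.25 to 3.35, Fech by 1.36 to 1.66 and Slc25a37 by 1.66 to 1.94. With the number in the labels as a replicate block, limma called 0 probe sets in either direction and 0 of the 6, although 10348 had an unadjusted p under 0.05, 5 of the 6 among them. The changes there are by construction those of the unblocked fit, 1.62 for Alas2, 2.80 for Urod, 2.95 for Cpox, 1.53 for Fech and 1.78 for Slc25a37, with adjusted p-values of 0.125 to 0.143. The samples share only a number. For the 15 ratios, 0 passed after adjustment as deposited, with the offset and after quantile normalization (exact permutation tests, 4 with an unadjusted p under 0.05 as deposited). A pass needs most of the 15 to reach the smallest exact p, so these counts say little about stability. A ratio with 1 array left out cannot go below an exact p of 0.0571, nor in 4 numbered pairs below 0.125, so those p-values say nothing about stability.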
